A study of Mus musculus with 24 samples.

Results

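The 10 secreted regulators of Wnt signalling and their relatives described here were followed through mouse mammary fat. They were Sfrp1, Sfrp2, Sfrp4, Sfrp5, Dkk2 and Wif1, known as antagonists, the Dkk2 relative Dkk3, and the ligands Wnt2, Wnt5a and Wnt11. The action of Dkk3 on Wnt signalling was not examined here. The list of symbols was drawn up with earlier results of these data known, so the members are not an unselected sample of genes. All 10 members were found by symbol among the 39017 genes of the deposited count matrix. RNA-seq of total RNA, after depletion of ribosomal RNA, was made from flash-frozen subcutaneous fat of the mammary gland labelled 4th, from C57BL/6 mice. Each of 6 groups held 4 libraries: mice on Chow or on HFD (high-fat diet; the series calls the mice lean and obese), with fat taken from mice labelled no tumor, from the side contralateral to a breast tumor, or next to it (peritumoral). No genotype, transgene, age, time on diet or tumor line is given in the labels, and the strain is shared by every group. Nothing in the labels says whether the 4 libraries of a group are separate animals, so the p-values below measure the spread between libraries, which may in part be technical. Nor do they say whether contralateral and peritumoral libraries with the same number come from the same mouse.

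Wnt proteins are secreted lipid-modified ligands that bind Frizzled receptors. With the co-receptors Lrp5 and Lrp6 they stabilise beta-catenin (the canonical branch), and through Ror and Ryk receptors they act without it. Secreted Frizzled-related proteins (Sfrp) and Wif1 bind Wnt ligands outside the cell, while Dkk2 binds the Lrp co-receptors and Dkk3 is a divergent relative of that family. In fat, canonical Wnt signalling is known for holding precursor cells back from becoming adipocytes. Wnt5a and Wnt11 are known mainly as ligands of the branches that do not use beta-catenin, and Wnt2 as a ligand that can act through it.

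Library totals ran from 9130125 to 18204747 counts. Levels are given as CPM, counts scaled to library size with TMM factors over the 24 libraries, and genes are compared with each other only as CPM per kilobase of counted exon length. As a check of the tissue label, 12 adipocyte genes summed to 11178 to 25876 CPM per library, and none was at 0. Other cell types were also measured, and libraries differed in them. Skeletal muscle markers summed to more than 1000 CPM in 5 libraries, all on Chow (contralateral replicates 1, 2 and 4, peritumoral replicate 2 and no-tumor replicate 3). HFD peritumoral replicate 1 stood apart from the other 3 libraries of its group, with 20626 CPM of adipocyte markers against 11178 to 15314 and 152 CPM of proliferation markers against 275 to 461. In whole tissue, fewer cells of a type and less RNA per cell cannot be told apart.

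Per kilobase, Sfrp5 was the most abundant member, with a mean of 73.1 CPM per kb over the 24 libraries, followed by Sfrp4 with 13.5 and Sfrp2 with 11.1. Sfrp1 reached 4.34 CPM per kb. Dkk3, Wnt5a and Wnt2 lay at 3.35, 3.35 and 3.33 CPM per kb. Dkk2, Wnt11 and Wif1 were the lowest, at 1.45, 1.41 and 0.703 CPM per kb. Sfrp5 was not the highest on Chow, where its group means of 5.73 to 7.68 CPM per kb lay below those of Sfrp4 and Sfrp2 in each position.

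The members that differed between the peritumoral and contralateral sides on HFD, described below, lie on separate chromosomes apart from Sfrp2 and Dkk2 (both on chromosome 3). RefSeq promoters (build GRCm38.p6, the same chromosome coordinates as mm10) matched 6 of the 10 members. Those of the 4 matched members that differed between these sides on HFD are printed to show what the region before each start holds. Wnt11 had 2 promoters, of which only the first by coordinate was searched and printed. The 250 bases before the annotated start are given 5′ to 3′ on the gene's strand. Capitals mark exact matches on either strand to CTTTGA or CTTTGT (the core bound by the Tcf and Lef factors of the canonical branch), TATAAA (the TATA box) or AGGTCA (a nuclear receptor site). These motifs do not overlap each other in the sequences shown.
Sfrp5, chr19:42202253-42202502, minus strand: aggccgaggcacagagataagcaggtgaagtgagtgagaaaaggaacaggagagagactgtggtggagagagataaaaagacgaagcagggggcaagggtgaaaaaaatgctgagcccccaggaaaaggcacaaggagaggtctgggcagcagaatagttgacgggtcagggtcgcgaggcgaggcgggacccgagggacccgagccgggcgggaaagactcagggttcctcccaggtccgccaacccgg
Sfrp2, chr3:83766071-83766320, plus strand: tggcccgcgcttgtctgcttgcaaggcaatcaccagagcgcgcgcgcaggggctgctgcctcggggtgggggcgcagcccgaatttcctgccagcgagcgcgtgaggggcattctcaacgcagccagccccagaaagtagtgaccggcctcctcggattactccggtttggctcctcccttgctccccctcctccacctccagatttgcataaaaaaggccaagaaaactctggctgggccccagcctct
Dkk2, chr3:132085042-132085291, plus strand: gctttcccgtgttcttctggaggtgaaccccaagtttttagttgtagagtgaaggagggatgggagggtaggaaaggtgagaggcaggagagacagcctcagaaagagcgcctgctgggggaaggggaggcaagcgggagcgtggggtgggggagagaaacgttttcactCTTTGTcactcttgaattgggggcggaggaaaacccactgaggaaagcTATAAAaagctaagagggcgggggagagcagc
Wnt11, chr7:98834862-98835111, plus strand: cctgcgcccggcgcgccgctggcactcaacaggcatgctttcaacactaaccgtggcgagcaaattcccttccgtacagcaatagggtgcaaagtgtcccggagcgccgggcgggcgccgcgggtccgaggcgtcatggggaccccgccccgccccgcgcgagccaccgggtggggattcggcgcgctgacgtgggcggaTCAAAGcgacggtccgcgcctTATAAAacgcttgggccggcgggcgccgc
Dkk2 held CTTTGT 80 to 75 bases before its start and TATAAA 32 to 27 bases before it. The printed Wnt11 promoter held CTTTGA on the opposite strand 50 to 45 bases before its start and TATAAA 29 to 24 bases before it. Neither Sfrp5 nor Sfrp2 held any of these letters in this window. Over the 32817 promoters of the table, CTTTGA was found in 13.8%, CTTTGT in 16.5%, TATAAA in 12.4% and AGGTCA in 14%, so each match is common by itself. GC content was 70.8% for Wnt11, 63.6% for Sfrp2, 59.6% for Sfrp5 and 55.6% for Dkk2, beside a median of 52.4% over all promoters. The Wnt11 window held 37 CpG pairs and that of Dkk2 held 7, beside a median of 6.

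Sfrp5 (ENSMUSG00000018822, mm10 chr19:42197971-42202252, minus strand), a Frizzled-related adipokine that binds Wnt5a, carried the widest range of any member. On Chow it measured 18.8, 4.63, 9.90 and 10.2 CPM in no-tumor fat, 11.05, 13.4, 24.1 and 9.85 CPM in contralateral fat and 9.08, 9.43, 17.6 and 8.89 CPM in peritumoral fat. On HFD the no-tumor libraries held 225, 246, 177 and 214 CPM, the contralateral libraries 243, 332, 392 and 516 CPM and the peritumoral libraries 217, 171, 222 and 230 CPM. Every HFD library lay above every Chow library, and the 3 Chow groups overlapped each other. Means on Chow were 10.9 ± 5.88, 14.6 ± 6.53 and 11.3 ± 4.25 CPM (SD, n = 4) in no-tumor, contralateral and peritumoral fat. The same positions on HFD gave 216 ± 28.8, 371 ± 115 and 210 ± 26.6 CPM (SD, n = 4).

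**Figure D1:**
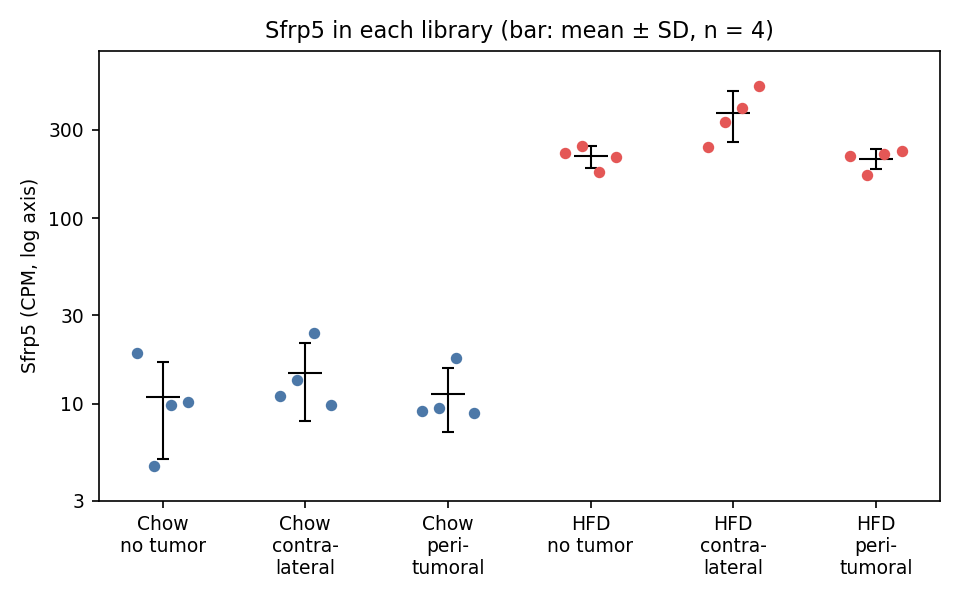
Sfrp5 in CPM on a log axis for each of the 24 libraries, by diet and position; points are libraries, bars the group mean ± SD (n = 4). The 12 HFD libraries sit between 171 and 516 CPM and the 12 Chow libraries between 4.63 and 24.1 CPM.

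Between diets, Sfrp5 rose at each position: 19.8-fold in no-tumor fat, 25.4-fold in contralateral fat and 18.7-fold in peritumoral fat by the ratio of group means. Fitted log2 fold changes (HFD over Chow ± SE) were 4.31 ± 0.38 in no-tumor fat, with an adjusted p of 0.000293 from edgeR's quasi-likelihood test over all genes. Contralateral fat gave 4.63 ± 0.38 (adjusted p = 8.84e-05) and peritumoral fat 4.16 ± 0.24 (adjusted p = 5.99e-05). The call held at each position under each of 14 alternative analyses, and also without the 5 libraries high in muscle markers, where contralateral fat gave 3.93 with an adjusted p of 0.0116. In no-tumor fat the adipocyte markers summed to 17797 to 21764 CPM on Chow and 19352 to 20181 CPM on HFD. Relative to 1000 CPM of their sum, Sfrp5 still stood 18.8-fold higher on HFD in no-tumor fat, 16.8-fold in contralateral fat and 18.6-fold in peritumoral fat. In each of these the groups did not overlap (exact permutation test over libraries, two-sided, p = 0.0286, the smallest that 4 against 4 can give; adjusted over 15 such ratios, 0.0476). That scaling was chosen after the values were seen. The adipocyte sums differed far less between diets than Sfrp5 did, so these ratios were nearly certain to separate and that p adds no support.

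The genes most like Sfrp5 in log2 CPM over the 24 libraries were Abat (4-aminobutyrate aminotransferase), Synpo2 (an actin-binding protein) and Prelp (a matrix proteoglycan), with Pearson r of 0.993, 0.989 and 0.985. The libraries share diet and position groups, so these values describe likeness only.

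Besides Sfrp5, 5 members differed with diet at 1 or more positions. In no-tumor fat 3 of 10 members passed the adjusted p threshold of 0.05, where 24.9% of 15827 tested genes did: Sfrp5 was higher (13.6% of all genes were), and Wnt2 and Dkk2 were lower (11.3% were). In contralateral fat 4 of 10 passed, beside 49.3% of all genes: Sfrp5, Sfrp1 and Wnt5a were higher (24.5% of all genes) and Dkk3 was lower (24.8%). In peritumoral fat 3 of 10 passed, beside 33.6% of all genes: Sfrp5 and Sfrp1 were higher (16.4%) and Dkk3 was lower (17.2%). The members' median log2 change was 0.095, 0.072 and 0.19 at these positions, beside -0.016, -0.012 and 0.017 over all genes.

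**Figure D2:**
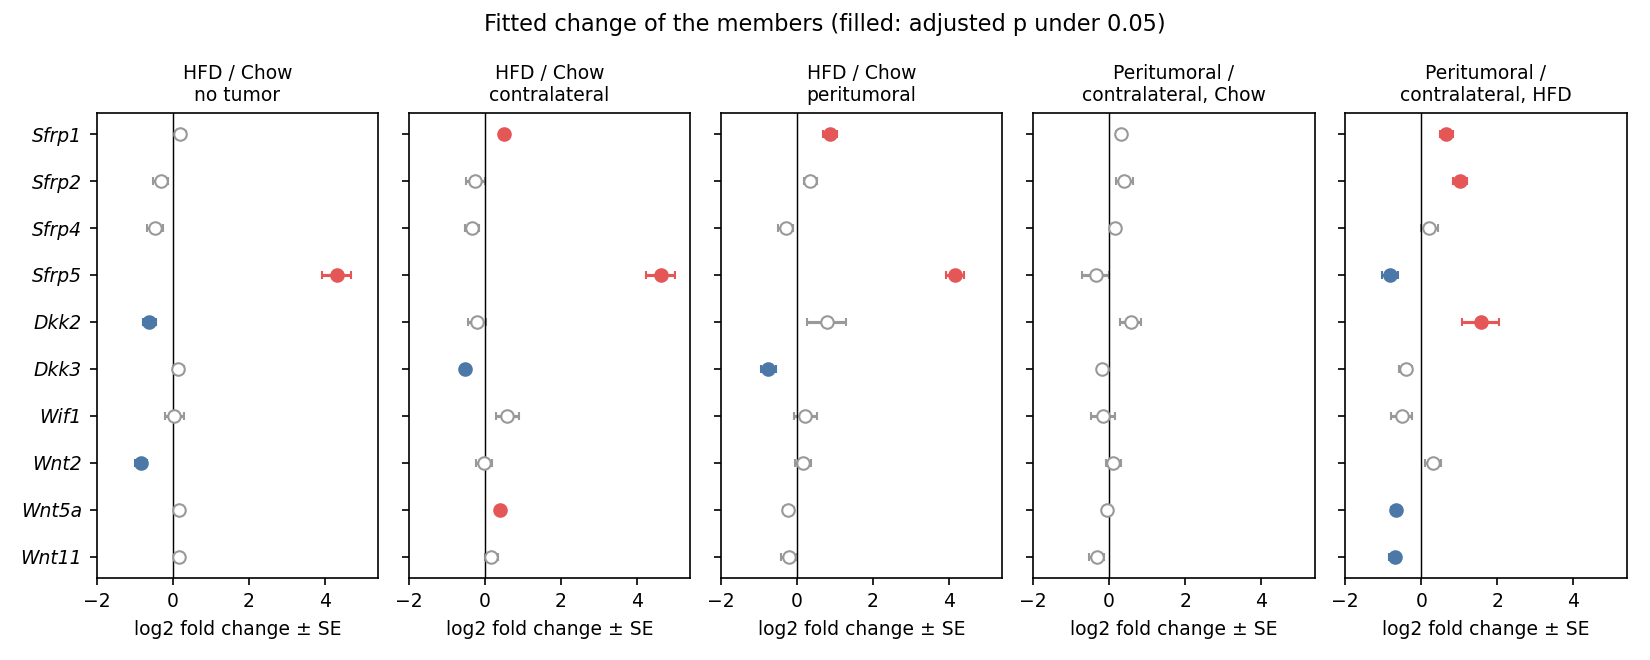
Fitted log2 fold change ± SE of the 10 members (rows) in 5 comparisons (panels); filled points passed an adjusted p of 0.05, red higher and blue lower, open points did not. Sfrp5 lies above 4 in the 3 diet panels, no point is filled between sides on Chow, and 6 are filled between sides on HFD.

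Sfrp1 (ENSMUSG00000031548, mm10 chr8:23411502-23449632, plus strand), an antagonist known from stromal cells and adipose tissue, was higher on HFD in both fats of the tumor-bearing mice. In contralateral fat it measured 14.7, 13.6, 13.2 and 12.9 CPM on Chow and 18.5, 19.4, 24.4 and 17.5 CPM on HFD, with no overlap. The change was 0.51 ± 0.11 in log2 (adjusted p = 0.00232). In peritumoral fat the Chow libraries held 15.5, 13.96, 19.8 and 18.02 CPM and the HFD libraries 29.0, 24.7, 43.7 and 28.4 CPM, again with no overlap. That change was 0.86 ± 0.19 (adjusted p = 0.00757). No-tumor fat gave 0.19 ± 0.16 (adjusted p = 0.435), and the difference between no-tumor and contralateral fat in the diet change was not called. Without the 5 libraries high in muscle markers, a fit that leaves a lone Chow contralateral library and assumes that it varies like the others, the contralateral value was 0.58 with an adjusted p of 0.0784. A4galt, Tgfbi and Slc25a30 were the genes most like Sfrp1 (r = 0.893, 0.893 and 0.883 over 24 libraries).

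Dkk3 (ENSMUSG00000030772, mm10 chr7:112116019-112159057, minus strand) was lower on HFD where Sfrp1 was higher. Contralateral fat held 15.2, 14.1, 13.4 and 13.4 CPM on Chow and 10.2, 10.2, 11.6 and 8.40 CPM on HFD, without overlap. It fell by 0.51 in log2 (SE 0.11, adjusted p = 0.00199). In peritumoral fat 15.3, 11.3, 13.01 and 9.83 CPM on Chow stood beside 9.84, 6.38, 7.91 and 6.05 CPM on HFD, overlapping only at the lowest Chow and the highest HFD library. It fell by 0.76 there (SE 0.19, adjusted p = 0.0148), a call that missed the threshold without Chow peritumoral replicate 1 (adjusted p = 0.0527). No-tumor fat gave 11.2 ± 0.664 CPM on Chow and 12.3 ± 2.85 CPM on HFD (SD, n = 4), a change of 0.14 ± 0.14 (adjusted p = 0.515). Without the libraries high in muscle markers the contralateral value was -0.42 (adjusted p = 0.147) and the peritumoral value -0.80 (adjusted p = 0.028). Mammary epithelial markers were lower on HFD at the same positions, 11 of 12 tested in contralateral fat and 9 of 12 in peritumoral fat, and 5 of 12 were lower in no-tumor fat, where Dkk3 was not called. Their summed level ranged from 713 to 834 CPM on Chow and 328 to 433 CPM on HFD in contralateral fat. Schwann cell and nerve markers were lower in 4 of 6 genes and higher in 1 in contralateral fat (241 to 261 CPM in sum on Chow, 183 to 203 on HFD) and lower in 4 of 6 in peritumoral fat (207 to 267 CPM on Chow, 156 to 225 on HFD). In no-tumor fat 2 of 6 were higher and 0 lower (187 to 233 CPM on Chow, 196 to 226 on HFD). The part of either list in the Dkk3 result was not tested. Atp6v1b1, Rasgef1c and Plekhb1 were most like Dkk3 (r = 0.935, 0.927 and 0.916).

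Wnt2 (ENSMUSG00000010797, mm10 chr6:17988940-18030585, minus strand) was lower on HFD in no-tumor fat. Chow libraries held 10.95, 10.2, 9.70 and 8.95 CPM and HFD libraries 7.41, 3.95, 5.26 and 5.42 CPM, without overlap. It fell by 0.84 in log2 (SE 0.16, adjusted p = 0.0025), and the call held under all 14 alternatives and without the libraries high in muscle markers. Contralateral fat gave -0.030 ± 0.21 (adjusted p = 0.918) and peritumoral fat 0.15 ± 0.21 (adjusted p = 0.602). Stromal progenitor and fibroblast markers were lower in no-tumor fat in 7 of 13 genes and higher in 1, summing to 8479 to 9978 CPM on Chow and 7973 to 8599 CPM on HFD. Their part in the Wnt2 result was not tested. Cd248 (a stromal surface protein), Csrp2 and Bco2 were most like Wnt2 (r = 0.824, 0.810 and 0.807).

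Dkk2 (ENSMUSG00000028031, mm10 chr3:132085292-132180293, plus strand) was also lower on HFD in no-tumor fat, with 3.25, 4.63, 4.72 and 4.70 CPM on Chow and 3.08, 2.74, 2.997 and 2.41 CPM on HFD. The lowest Chow library lay just above the highest HFD library. It fell by 0.61 in log2 (SE 0.17, adjusted p = 0.0204) on 41 to 72 counts per library. The call was lost without Chow no-tumor replicate 3 or 4 or HFD no-tumor replicate 4, and with all 24 libraries in 1 fit, with adjusted p up to 0.364. Without the libraries high in muscle markers it was -0.57 (adjusted p = 0.0569). Contralateral fat gave -0.20 ± 0.23 (adjusted p = 0.508) and peritumoral fat 0.78 ± 0.52 (adjusted p = 0.263).

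Wnt5a (ENSMUSG00000021994, mm10 chr14:28504750-28527447, plus strand) was higher on HFD in contralateral fat, at 30.9, 32.8, 28.4 and 30.8 CPM against 22.6, 27.1, 23.05 and 18.4 CPM on Chow, without overlap. The change was 0.40 ± 0.10 (adjusted p = 0.00733), and 0.40 with an adjusted p of 0.0499 without the libraries high in muscle markers. No-tumor fat gave 0.17 ± 0.13 (adjusted p = 0.411) and peritumoral fat -0.23 ± 0.15 (adjusted p = 0.239). Without HFD peritumoral replicate 1 the peritumoral value was -0.37 with an adjusted p of 0.0392. Adipocyte markers, summing to 14610 to 17314 CPM on Chow and 23298 to 25876 CPM on HFD, were higher in 8 of 12 genes in the same contralateral comparison, and lower in 1.

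Sfrp4 (ENSMUSG00000021319, mm10 chr13:19623175-19632821, plus strand) and Wif1 (ENSMUSG00000020218, mm10 chr10:121033960-121100650, plus strand) passed the test in none of 9 comparisons. Sfrp4 group means ran from 19.8 ± 4.99 CPM in HFD contralateral fat to 28.3 ± 7.52 CPM in Chow no-tumor fat (SD, n = 4), and neighbouring groups overlapped throughout. Between diets its log2 change was -0.47 ± 0.21 in no-tumor fat (adjusted p = 0.137), -0.33 ± 0.19 in contralateral fat (adjusted p = 0.172) and -0.29 ± 0.20 in peritumoral fat (adjusted p = 0.276). Chow no-tumor replicate 2 held 17.6 CPM beside 28.7 to 34.7 CPM in the other 3 libraries, and without it the no-tumor value was -0.63 with an adjusted p of 0.0019. Dpp4, a marker of adipose progenitor cells, was among the genes most like Sfrp4 (r = 0.847), with Flrt2 (0.864) and Lrrn4cl (0.841). Wif1 lay between 0.921 and 3.01 CPM on 11 to 48 counts per library, a depth that limits the precision of its values. Without HFD contralateral replicate 1 it passed between diets in contralateral fat (0.81, adjusted p = 0.0241). Mrps23, Maoa and Cyp2u1 were most like Wif1, at r of 0.717, 0.702 and 0.698.

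**Figure D3:**
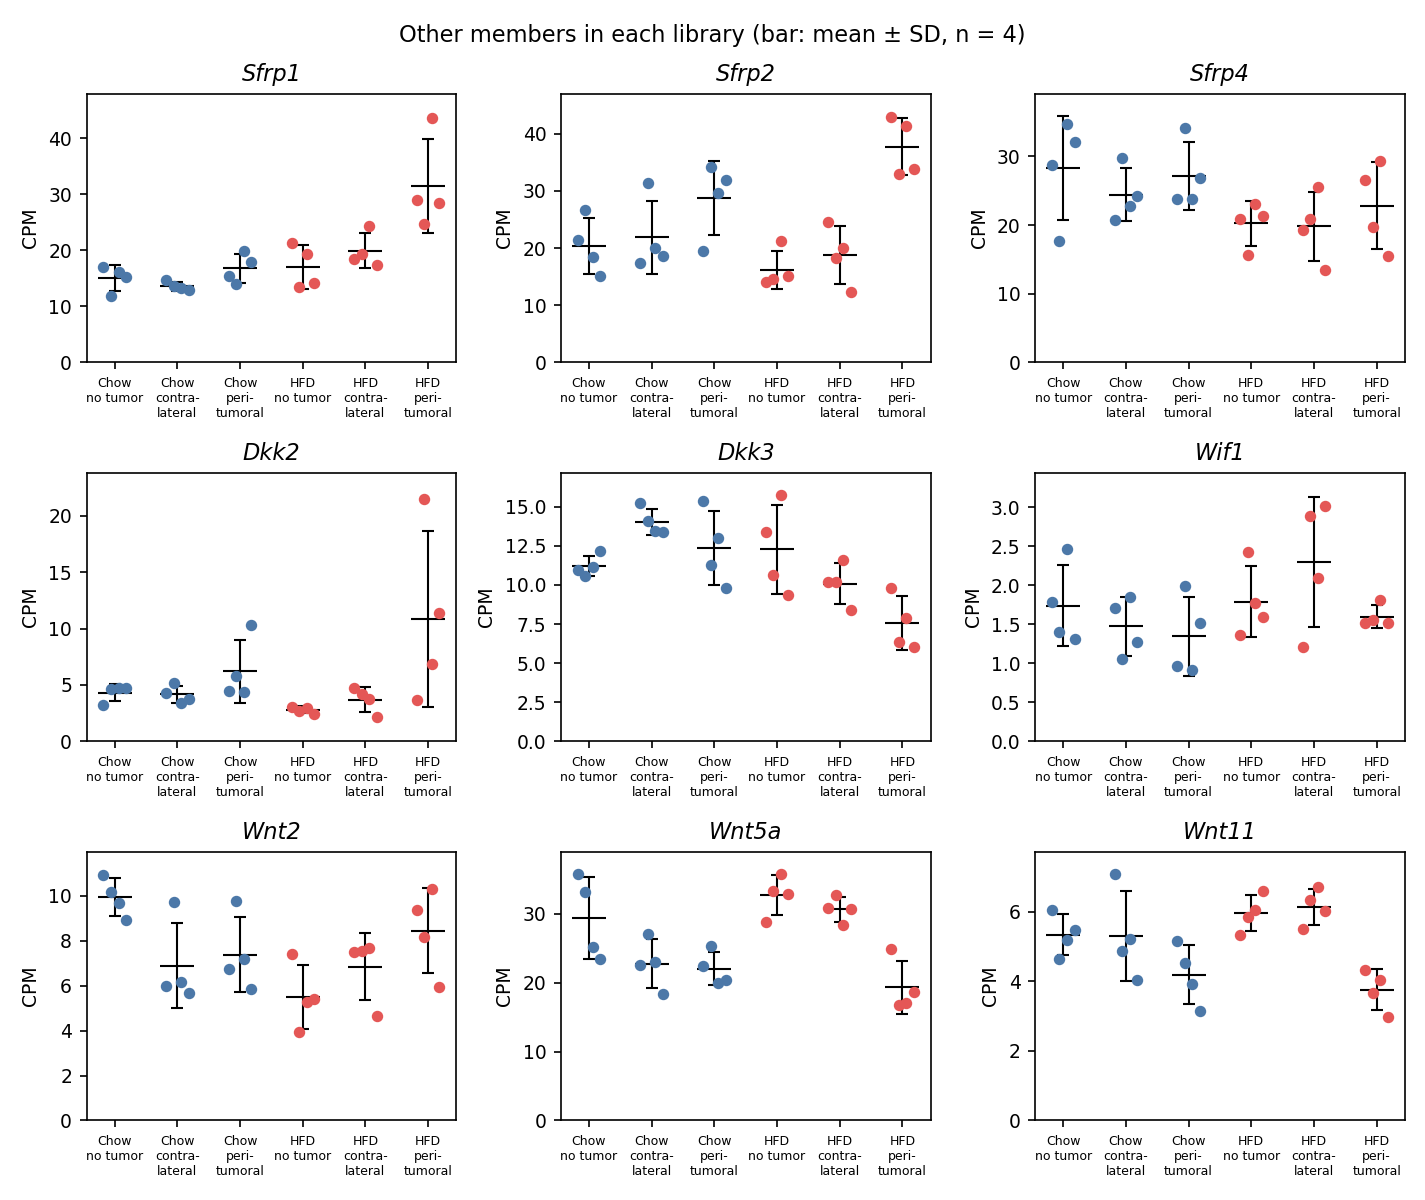
CPM of the other 9 members in each library (points; blue Chow, red HFD) with group mean ± SD (n = 4), each axis starting at 0. Sfrp1 and Sfrp2 stand highest in HFD peritumoral fat, Wnt2 in Chow no-tumor fat, and 1 HFD peritumoral library of Dkk2 reaches 21.5 CPM.

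Next to the tumor on HFD, 6 of 10 members differed from the contralateral side, beside 29.5% of 15627 tested genes. Sfrp1, Sfrp2 and Dkk2 rose (16.8% of all genes did), and Sfrp5, Wnt5a and Wnt11 fell (12.7% did). The members' median log2 change was -0.099, beside -0.024 over all genes. Without peritumoral replicate 1, 7 members passed, Dkk3 (-0.56, adjusted p = 0.0172) being added. On Chow, 0 of 10 members and 0% of 16057 genes passed the edgeR test in either direction (0% higher and 0% lower). Unadjusted p was under 0.05 for 1 member and 1381 genes there, and DESeq2 called 19 genes and no member. The difference between diets in this change was not called for any member (0 of 10, beside 0% of 16859 genes, 0% higher and 0% lower). Of all genes, 3349 had an unadjusted p under 0.05 in that interaction and DESeq2 called 727, among them 1 member. All comparisons with contralateral fat share its libraries.

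Sfrp2 (ENSMUSG00000027996, mm10 chr3:83766321-83774316, plus strand), an antagonist of stromal and progenitor cells, rose the most firmly. The contralateral HFD libraries held 24.6, 18.3, 19.9 and 12.3 CPM and the peritumoral libraries 42.8, 33.0, 41.3 and 33.8 CPM. Every peritumoral library was higher than every contralateral library. The change was 1.01 ± 0.18 in log2 (adjusted p = 0.00564) and held under all 14 alternatives, with adjusted p up to 0.0219. On Chow, contralateral fat held 17.5, 31.4, 20.1 and 18.7 CPM and peritumoral fat 19.5, 34.2, 29.6 and 31.8 CPM, which overlapped (0.40 ± 0.22, adjusted p = 0.598). The interaction was 0.64 ± 0.31 (adjusted p = 0.265). An antisense gene shares 16.1% of the Sfrp2 exon bases, but held at most 5 counts in any library. Cpxm1, Col14a1 (a fibril-associated collagen) and Socs3 were most like Sfrp2 (r = 0.840, 0.824 and 0.816).

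Sfrp1 rose from 19.9 ± 3.10 to 31.4 ± 8.39 CPM (SD, n = 4), with the lowest peritumoral library at 24.7 and the highest contralateral library at 24.4 CPM. The change was 0.66 ± 0.18 (adjusted p = 0.0225), and was lost without HFD contralateral replicate 1, 2 or 4, where adjusted p reached 0.0618. On Chow it was 0.31 ± 0.13 (adjusted p = 0.562), and the interaction was 0.39 ± 0.23 (adjusted p = 0.344).

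Dkk2 measured 4.72, 4.18, 3.75 and 2.13 CPM in contralateral HFD fat and 3.65, 21.5, 6.88 and 11.4 CPM in peritumoral HFD fat. Its replicate 1 lay within the contralateral range, and replicate 2 stood far above the rest. The change was 1.56 ± 0.49 (adjusted p = 0.0384). The call was lost in 8 of 14 alternatives, among them without any 1 of the 4 contralateral libraries, without peritumoral replicate 2 or 4, without a filter on low counts, and with the replicate number as a block (1.36, adjusted p = 0.0673). The value was 0.998 without peritumoral replicate 2 (adjusted p = 0.0987), and adjusted p reached 0.114 over the 14. Without peritumoral replicate 1, which stood apart, it was 1.85 with an adjusted p of 0.00574. Proliferation markers rose in 5 of 5 genes in the same comparison. Across the 4 peritumoral HFD libraries Dkk2 and the summed proliferation markers followed the same order, at 152, 461, 275 and 346 CPM of those markers in replicates 1 to 4. The summed adipocyte markers ran in the reverse order there (20626, 11178, 15314 and 13893 CPM). In no other group did Dkk2 follow the order of the proliferation markers. In Chow peritumoral fat, for example, Dkk2 held 4.47, 5.81, 4.36 and 10.3 CPM beside 37.7, 46.1, 93.4 and 181 CPM of those markers. The part of either list in the Dkk2 result was not tested. The genes most like Dkk2 over 24 libraries were Aatf, Npm1 (a nucleolar chaperone) and Il1rap, with r of 0.948, 0.925 and 0.908. On Chow the change was 0.56 ± 0.28 (adjusted p = 0.578), and the interaction was 1.03 ± 0.63 (adjusted p = 0.369).

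Sfrp5 fell next to the tumor on HFD, by 0.81 in log2 (SE 0.20, adjusted p = 0.018), to a level that overlapped HFD no-tumor fat. Every peritumoral library, at most 230 CPM, lay below every contralateral library, at least 243 CPM. The call held under all 14 alternatives, with adjusted p up to 0.0487. Chow gave -0.36 ± 0.34 (adjusted p = 0.746), and the interaction was -0.43 ± 0.41 (adjusted p = 0.579).

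Wnt5a, the ligand that Sfrp5 is known to bind, fell beside it. Contralateral libraries held 28.4 to 32.8 CPM and peritumoral libraries 25.0, 16.7, 17.1 and 18.6 CPM, without overlap. It fell by 0.66 (SE 0.13, adjusted p = 0.00705), and the call held under all 14 alternatives. Chow gave -0.042 ± 0.12 (adjusted p = 0.921). The interaction was -0.59 ± 0.18, with an adjusted p of 0.129 in edgeR. DESeq2 gave -0.62 with an adjusted p of 0.0382, and edgeR without HFD peritumoral replicate 1 gave -0.73 with an adjusted p of 0.0117. An antisense gene shares 4.58% of the Wnt5a exon bases and held at most 20 counts, where Wnt5a held 175 or more. Matn2 (a matrix adaptor protein), Nudt13 and Cd1d1 were most like Wnt5a, with r of 0.894, 0.887 and 0.885.

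Wnt11 (ENSMUSG00000015957, mm10 chr7:98835112-98855195, plus strand), with 1 promoter printed above, measured 5.51, 6.33, 6.71 and 6.01 CPM in contralateral HFD fat and 4.33, 3.68, 4.04 and 2.97 CPM in peritumoral HFD fat. The groups did not overlap. It fell by 0.70 (SE 0.16, adjusted p = 0.0114), and the call held under all 14 alternatives, with adjusted p up to 0.0398. On Chow the change was -0.33 ± 0.20 (adjusted p = 0.622), and the interaction was -0.35 ± 0.26 (adjusted p = 0.459). Klhl22, Cdc42bpg and Amotl2 were most like Wnt11 (r = 0.894, 0.860 and 0.846). Of the 45 pairs of members, Wnt5a and Wnt11 had the highest correlation (r = 0.723 over 24 libraries), and Dkk2 with Wnt11 the lowest (r = -0.733).

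The cell makeup of the HFD samples moved with this comparison. Adipocyte markers were lower next to the tumor in 10 of 12 genes (23298 to 25876 CPM in contralateral and 11178 to 20626 CPM in peritumoral libraries). Macrophage markers were higher in 9 of 9 genes (1326 to 1609 against 2531 to 3374 CPM). Stromal progenitor and fibroblast markers were higher in 4 of 13 genes and lower in 0 (6197 to 9514 against 9268 to 12201 CPM). Their median log2 change was 0.094, and a sum of CPM is weighted to the most abundant genes of a list. Of these lists no gene was at 0 in all libraries of a group, and the part of these cells in the members' changes was not tested beyond the ratios that follow.

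Relative to 1000 CPM of adipocyte markers in the same library, the 3 members that fell showed no difference between sides beyond the spread. Sfrp5 stood at 14.2 ± 2.60 in peritumoral and 15.1 ± 4.31 in contralateral fat (SD, n = 4; exact permutation p = 0.914, adjusted 0.914). Wnt5a stood at 1.29 ± 0.165 and 1.26 ± 0.129 (exact p = 0.743, adjusted 0.857), and Wnt11 at 0.254 ± 0.0558 and 0.251 ± 0.0181 (exact p = 0.914, adjusted 0.914). On the same scale Sfrp1 was 2.62-fold and Sfrp2 3.30-fold higher next to the tumor, each without overlap (exact p = 0.0286, adjusted 0.0476). Both already lay higher there without overlap, and the adipocyte sum lay lower without overlap. Their separation was thus fixed before the ratio was taken, and its p adds no support. Dkk2 was 5.54-fold higher with overlap (exact p = 0.0857, adjusted 0.129). Relative to 1000 CPM of stromal markers, Sfrp5, Wnt5a and Wnt11 stood at 0.397, 0.463 and 0.446 of their contralateral level, each without overlap (exact p = 0.0286, adjusted 0.0476). These 3 had already fallen without overlap while the stromal sum was mostly higher, so that outcome was nearly fixed too. Sfrp2 was 1.52-fold higher next to the tumor on the stromal scale, at 3.47 ± 0.0822 against 2.28 ± 0.379 without overlap (exact p = 0.0286, the smallest 4 against 4 can give, adjusted 0.0476). That adjusted value is under 0.05 only because other ratios, fixed or nearly so, share the smallest p, so it adds no support. Sfrp1 stood at 2.88 ± 0.549 and 2.51 ± 0.621 on that scale (exact p = 0.429, adjusted 0.536) and overlapped. Dkk2 stood at 1.08 ± 0.895 and 0.444 ± 0.0718 (exact p = 0.229, adjusted 0.312). These 15 ratios, the diet ratios of Sfrp5 among them, were chosen after the data were seen, and an exact test that misses the threshold with 4 libraries a side does not show that the values are alike.

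**Figure D4:**
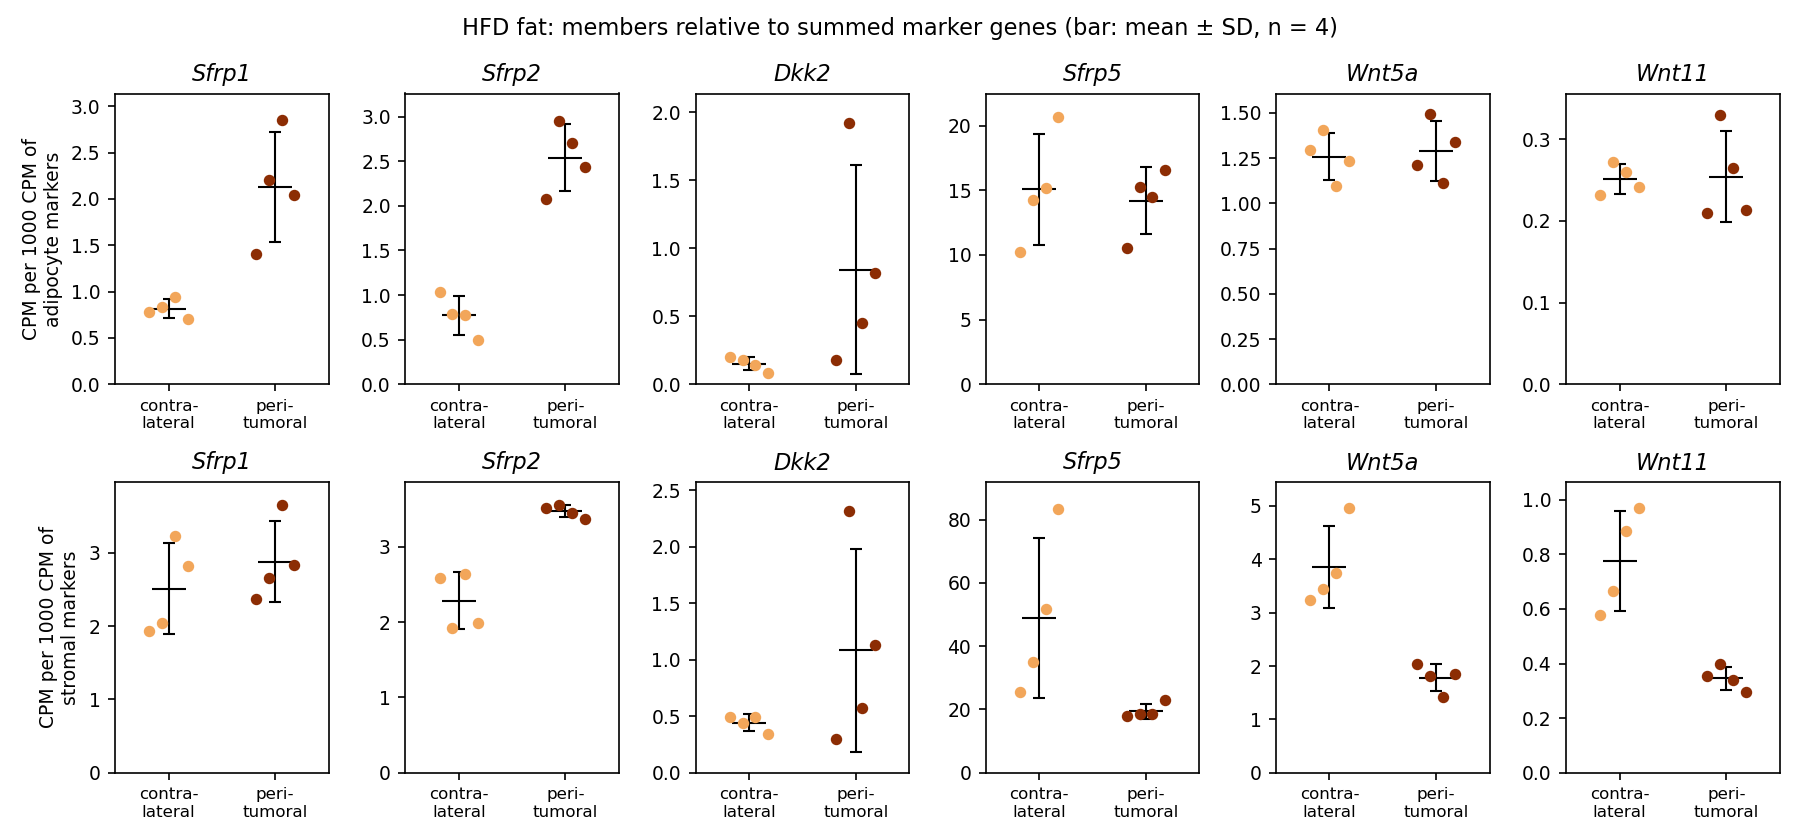
The 6 members called between sides on HFD, as CPM per 1000 CPM of the 12 adipocyte markers (upper row) or the 13 stromal markers (lower row) in the same library; points are libraries (light contralateral, dark peritumoral), bars mean ± SD (n = 4), axes start at 0. Sfrp5, Wnt5a and Wnt11 overlap between sides in the upper row and separate in the lower row, Sfrp1 separates in the upper row and overlaps in the lower, and Sfrp2 separates in both.

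Contralateral fat was compared with no-tumor fat of the same diet to ask what differed away from the tumor. On Chow 1 of 10 members passed, beside 7.95% of 15946 genes: Dkk3 was higher (4.93% of all genes were, and 3.02% were lower, with 0 members). It measured 10.95, 10.6, 11.2 and 12.1 CPM in no-tumor and 15.2, 14.1, 13.4 and 13.4 CPM in contralateral fat, a change of 0.36 ± 0.085 (adjusted p = 0.0308). The call was lost in 9 of 14 alternatives, among them without any 1 of the contralateral libraries or of no-tumor replicates 1 and 3, with adjusted p up to 0.181. Without the libraries high in muscle markers it was 0.27 with an adjusted p of 0.758. On HFD 0 of 10 members passed the edgeR test, beside 6.08% of 15718 genes (2.72% higher and 3.37% lower). Unadjusted p was under 0.05 for 1 member, Sfrp5, which DESeq2 called. Sfrp5 gave 0.76 ± 0.22 (adjusted p = 0.0919), or 0.76 with an adjusted p of 0.0264 in DESeq2 and 0.91 with 0.0241 without HFD contralateral replicate 1.

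The change from no-tumor to contralateral fat differed between diets for 2 of 10 members, beside 19.9% of 16676 genes. Wnt2 was higher in this interaction (9.94% of all genes were) and Dkk3 was lower (9.94% were). For Dkk3 the change was 0.36 on Chow and -0.31 on HFD (adjusted p = 0.276), and the interaction was -0.65 ± 0.19 (adjusted p = 0.0219). It missed the threshold with all 24 libraries in 1 fit (adjusted p = 0.0653) and without the libraries high in muscle markers (-0.57, adjusted p = 0.279). For Wnt2 the change was -0.51 ± 0.17 on Chow (adjusted p = 0.0807) and 0.29 ± 0.20 on HFD (adjusted p = 0.437), and the interaction was 0.81 ± 0.28 (adjusted p = 0.0483). It was lost in 17 of 22 alternatives, with adjusted p up to 0.108. Marker lists moved in the same interaction: adipocyte markers were higher in 7 of 12 genes and macrophage markers in 6 of 9, and lower were endothelium in 6 of 7, Schwann cell and nerve in 4 of 6, smooth muscle in 3 of 6 and epithelium in 4 of 12. On Chow alone, several lists were higher in contralateral than in no-tumor fat, as Dkk3 was. They were Schwann cell and nerve in 4 of 6 genes, endothelium in 4 of 7, smooth muscle in 3 of 6 and epithelium in 2 of 12. Stromal progenitor and fibroblast markers were lower in 1 of 13. Their part in the Dkk3 and Wnt2 results was not tested. Without Chow contralateral replicate 2, whose 9.73 CPM stood above 5.69 to 6.17 CPM in the other 3 libraries, the Chow change was -0.71 with an adjusted p of 0.0147.

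Other genes of the pathway are described by list, and counts of called genes stand beside the share of all genes called. Unlike the members, these genes were not examined without the 5 libraries high in muscle markers. Most of those libraries are Chow contralateral, so the diet changes in contralateral fat below carry that limit. Of 16 other Wnt ligands 7 or 8 passed the filter on low counts. On HFD 0 of 7 were lower in no-tumor fat, 3 in contralateral fat and 2 in peritumoral fat (11.3%, 24.8% and 17.2% of all genes). Wnt4 and Wnt2b were lower on HFD in contralateral fat (-1.08 ± 0.17, adjusted p = 0.000318, and -0.96 ± 0.15, adjusted p = 0.000295), as they were in peritumoral fat (-1.34 ± 0.30, adjusted p = 0.00846, and -0.88 ± 0.24, adjusted p = 0.0185). Wnt5b was also lower in contralateral fat (-0.62 ± 0.21, adjusted p = 0.0318), and none of the other ligands was higher on HFD. Mammary epithelial markers fell in these comparisons too (11 of 12 and 9 of 12 genes), from a mean sum of 776 to 383 CPM in contralateral fat and of 736 to 291 CPM in peritumoral fat. Their part in the lower levels of Wnt4, Wnt2b, Wnt5b, Lgr5, Lgr6, Rnf43 and Dkkl1 was not tested. Between sides on HFD 0 of 8 other ligands passed, beside 29.5% of all genes.

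Receptors split by gene. On HFD 4 of 15 tested were higher and 2 lower in no-tumor fat, 6 and 6 in contralateral fat and 1 and 5 in peritumoral fat. Shares of all genes higher and lower were 13.6% and 11.3%, 24.5% and 24.8%, and 16.4% and 17.2% at these positions. Fzd4, a Frizzled receptor of the canonical branch, rose from 216 to 348 CPM in no-tumor fat (0.70 ± 0.084, adjusted p = 9.09e-05) and from 197 to 419 CPM in contralateral fat (1.05 ± 0.079, adjusted p = 2.61e-06). Fzd1 rose from 40.3 to 73.4 CPM in contralateral fat (0.83 ± 0.085, adjusted p = 1.95e-05). Endothelial markers were higher on HFD in 6 of 7 genes in no-tumor fat (469 to 508 CPM on Chow, 774 to 799 on HFD). In contralateral fat 0 of 7 were higher and 1 was lower. Between sides on HFD adipocyte markers were lower in 10 of 12 genes and endothelial markers in 0 of 7. The part of either list in the receptor results was not tested. Fzd6 fell by 0.63 in contralateral fat (SE 0.10, adjusted p = 0.000445) and by 0.83 in peritumoral fat (SE 0.18, adjusted p = 0.0071). Next to the tumor on HFD 4 of 15 receptors fell and 0 rose (12.7% and 16.8% of all genes did), among them Fzd4 by 0.68 (SE 0.13, adjusted p = 0.00751), Fzd1 by 0.53 (SE 0.13, adjusted p = 0.0171) and the co-receptor Lrp5 by 0.29 (SE 0.073, adjusted p = 0.0172). Lgr4, a receptor for R-spondins, was higher on HFD in no-tumor fat (0.75 ± 0.093, adjusted p = 0.00013) and contralateral fat (0.82 ± 0.14, adjusted p = 0.00163), while Lgr5 and Lgr6 were lower in contralateral and peritumoral fat.

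Outside the member list, 6 genes listed as inhibitors were tested. On HFD 0 were higher and 1 lower in no-tumor fat, 1 and 2 in contralateral fat and 0 and 2 in peritumoral fat. The shares of all genes are those given above for the receptors. Dkkl1, whose action on Wnt signalling was not examined here, was lower at all 3 positions (-0.90 ± 0.20, -1.52 ± 0.23 and -1.89 ± 0.40 in no-tumor, contralateral and peritumoral fat). Rnf43, a ligase that removes Frizzled receptors, was lower in contralateral fat (-1.21 ± 0.19, adjusted p = 0.000318) and peritumoral fat (-1.61 ± 0.25, adjusted p = 0.00187). Apcdd1, a membrane inhibitor, was higher on HFD in contralateral fat (0.64 ± 0.089, adjusted p = 0.000179) and lower next to the tumor on HFD (-0.73 ± 0.18, adjusted p = 0.0176). Of the secretion genes, Porcn, which attaches the lipid to Wnt proteins, was lower on HFD next to the tumor than on Chow (-0.53 ± 0.18, adjusted p = 0.0404) and than in contralateral fat (-0.58 ± 0.17, adjusted p = 0.0304). Of 21 intracellular components, 7 were lower and 0 higher between sides on HFD (12.7% and 16.8% of all genes), with Bcl9l first (-0.77 ± 0.10, adjusted p = 0.00154). Between diets 4 were lower on HFD and 2 higher in no-tumor fat, 9 and 4 in contralateral fat and 9 and 1 in peritumoral fat. Shares of all genes lower and higher were 11.3% and 13.6%, 24.8% and 24.5%, and 17.2% and 16.4%.

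Genes used as readouts of canonical signalling did not all move together. Between diets 2 of 9 tested were higher on HFD and 1 lower in no-tumor fat, 2 and 0 in contralateral fat and 3 and 0 in peritumoral fat. Shares of all genes higher and lower were 13.6% and 11.3%, 24.5% and 24.8%, and 16.4% and 17.2%. Between sides on HFD 3 were higher and 2 lower, beside 16.8% and 12.7% of all genes. Axin2 held 18.2 to 21.2 CPM in the Chow no-tumor and 18.9 to 20.96 CPM in the HFD no-tumor libraries, and passed the test in 1 of 9 comparisons. It fell by 0.69 next to the tumor on HFD (SE 0.20, adjusted p = 0.0277), from 20.5, 20.1, 17.9 and 17.2 CPM to 17.4, 9.25, 10.9 and 9.08 CPM, with overlap at peritumoral replicate 1. Lef1 passed in none. Its highest library, 15.3 CPM in Chow contralateral replicate 4, also had the highest summed lymphocyte markers (112 CPM). The other 23 libraries held 0.177 to 4.18 CPM of Lef1. Among those 23, HFD peritumoral replicate 2 held 107 CPM of lymphocyte markers, and the part of lymphocytes in the Lef1 levels was not tested. Between diets, Ccn5 was higher on HFD in contralateral fat (1.66 ± 0.38, adjusted p = 0.0106) and peritumoral fat (1.83 ± 0.20, adjusted p = 0.000531). Ccn4 was higher on HFD in peritumoral fat (1.02 ± 0.35, adjusted p = 0.0451). In no-tumor fat Myc was lower on HFD (-0.87 ± 0.11, adjusted p = 0.000164) and Nkd2 higher (0.89 ± 0.16, adjusted p = 0.00162). Nkd1, a feedback inhibitor, was higher on HFD at all 3 positions (1.61 ± 0.16, 2.05 ± 0.12 and 1.19 ± 0.17 in no-tumor, contralateral and peritumoral fat). It fell next to the tumor on HFD by 1.04 (SE 0.16, adjusted p = 0.00272). In the same comparison between sides, Ccn4 rose (2.14 ± 0.30, adjusted p = 0.00204) and Myc rose (1.59 ± 0.38, adjusted p = 0.0149), beside the rise of the proliferation markers.

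**Figure D5:**
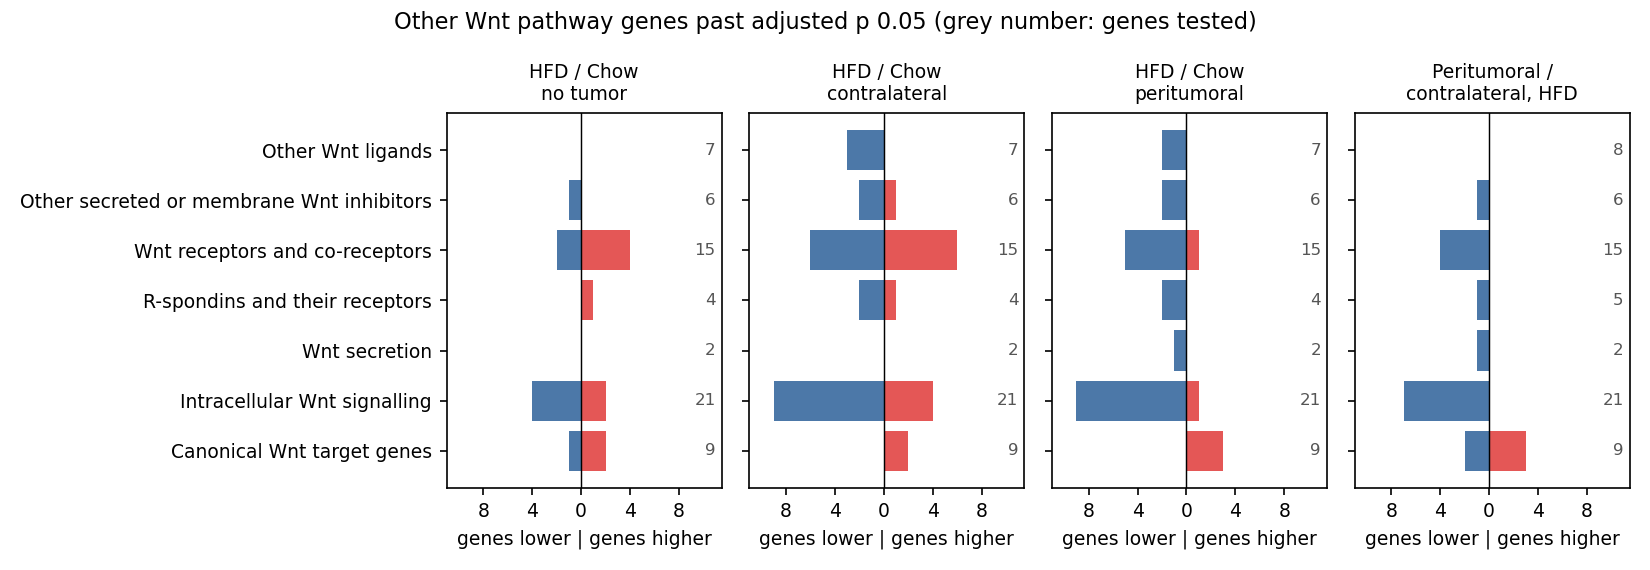
Number of other Wnt pathway genes past an adjusted p of 0.05 in 4 comparisons (panels), by gene list (rows); bars to the left are genes lower and bars to the right genes higher, and the grey number is how many were tested. In the last panel only canonical target genes have bars to the right (3 higher and 2 lower of 9 tested).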

How the data were processed

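Gene counts of the 24 libraries were used as the authors deposited them, whole-number counts per Ensembl gene with the exon coordinates beside them. The submitters' processing notes name TopHat, DESeq and the mouse build mm10. The counting tool, its strand setting and the versions are not given in the sources used here. Without a stated strand, reads of Sfrp2, Wnt5a and Wnt11 cannot be told apart from those of antisense genes that overlap their exons. Library totals of 9130125 to 18204747 counts set the precision.

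Pairwise tests used only the 8 libraries of their groups, and interactions used 16, in edgeR 4.0.16 (robust quasi-likelihood, TMM scaling, filterByExpr with a minimum count of 10 and total of 15) in R 4.3.3. P-values were adjusted by Benjamini-Hochberg over all genes tested, with a threshold of 0.05. The SE of a log2 change is its size divided by the square root of F. Likeness is Pearson's r of log2 CPM (prior count 2) over genes with a mean of at least 1 CPM. The fits were tested on simulated counts. No replicates were found to be 1 library deposited more than once.

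Named were all 10 members, up to 3 genes past the threshold per pathway list and comparison with the lowest adjusted p, Axin2 and Lef1, and the 3 genes most like each member. The members and lists were chosen with earlier results of these data known. Alternatives were DESeq2 1.42.0, RLE scaling, no filter, a filter of 1 CPM in 4 libraries, all 24 libraries in 1 fit, a replicate block and leaving out each library. Ratios to summed markers and leaving out the 5 libraries with over 1000 CPM of muscle markers were added after seeing the data.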

Additional observations from a re-analysis of the deposited data

Results flagged for a closer look

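Of 60 sets of 4 libraries (10 members in 6 groups), 6 had 1 library whose gap to its nearest neighbour exceeded Dixon's 95% critical share of the range, which chance gives in about 1 set in 20. Sfrp2 stood at 21.2 CPM in HFD no-tumor replicate 3, where the other 3 libraries held 14.1 to 15.2 CPM. Sfrp5 stood at 17.6 CPM in Chow peritumoral replicate 3, beside 8.89 to 9.43 CPM. Dkk2 stood at 3.25 CPM in Chow no-tumor replicate 1, below 4.63 to 4.72 CPM. Wif1 stood at 1.81 CPM in HFD peritumoral replicate 3, beside 1.51 to 1.55 CPM. Wnt2 appeared in 2 sets, at 9.73 CPM in Chow contralateral replicate 2 (beside 5.69 to 6.17 CPM) and at 4.64 CPM in HFD contralateral replicate 4 (beside 7.50 to 7.69 CPM).

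The change from no-tumor to contralateral fat differed between diets, by edgeR's interaction test, for Dkk3 (-0.65 in log2) and Wnt2 (0.81). Among the other pathway genes named by the rule, Myc (0.81), Apcdd1 (0.60), Fzd2 (0.54) and Fzd1 (0.49) were higher in this interaction. Lower were Lgr5 (-1.10), Rnf43 (-0.97), Wnt4 (-0.97), Tle2 (-0.94), Nkd2 (-0.77), Wnt2b (-0.72), Fzd6 (-0.70) and Tle1 (-0.47). Skeletal muscle markers were above 1000 CPM in 3 of 4 Chow contralateral libraries and in none of the HFD libraries. Between diets in contralateral fat 7 of 8 muscle genes were lower on HFD (24.8% of all genes were). In the interaction 0 of 8 passed, at a median log2 value of -2.68. Their sums ran from 90.9 to 5169 CPM within Chow contralateral fat, a spread over which that test could hardly call them. Lists that passed in the interaction were adipocyte (7 of 12 higher), macrophage (6 of 9 higher), endothelium (6 of 7 lower), Schwann cell and nerve (4 of 6 lower), smooth muscle (3 of 6 lower) and epithelium (4 of 12 lower). Their part in these interactions was not tested.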

How the results depend on the processing

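RLE scaling changed no member's or pathway gene's call. Of 79 calls of pathway genes named by the rule, none was lost with DESeq2 or the filter of 1 CPM. With all 24 libraries in 1 fit 19 were lost, with the replicate block 9 and without a filter 8. Leaving out 1 library at a time lost the call in 127 of 728 such values. With all 24 libraries in 1 fit, called genes numbered 8799 between diets in peritumoral fat (5353 as reported), 692 and 238 between contralateral and no-tumor fat on Chow and HFD (1268 and 956), 333 in the side interaction (0) and 1556 in the bearing interaction (3314), with 0 members on Chow and 0 in the bearing interaction. DESeq2 called 19 genes between sides on Chow, 727 genes and 1 member in the side interaction, and 1 member between contralateral and no-tumor fat on HFD. Without a filter 3 genes passed between sides on Chow and 7 in the side interaction, with 0 members between contralateral and no-tumor fat on Chow and 1 in the bearing interaction. The filter of 1 CPM also left 1 there.

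Whether replicate numbers pair libraries is not given in the labels. Deviations of same-numbered libraries correlated at -0.49 to 0.42 over all comparisons. Between sides on HFD, where both could come from 1 mouse, the 4 pairs gave -0.13, 0.12, 0.26 and 0.42, so not every pair was over 0.1, and 2 of 4 libraries correlated best with their own number. With the replicate block, 356 and 629 genes passed between contralateral and no-tumor fat on Chow and HFD, 43 in the side interaction, with 0 members on Chow and 1 in the bearing interaction. Sfrp4 then passed between diets in no-tumor fat (-0.45, adjusted p = 0.00335). Calls of Dkk2 between sides on HFD (1.36, adjusted p = 0.0673), Dkk3 on Chow (0.36, adjusted p = 0.0879) and Wnt2 in the bearing interaction (0.80, adjusted p = 0.0502) were lost.

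Leaving out 1 library at a time gave 3102 to 6003 called genes between diets in peritumoral fat (lowest without Chow peritumoral replicate 1), 0 to 1 between sides on Chow (1 without contralateral replicate 1) and 2750 to 6425 between sides on HFD. That last count moved by over 1.5 times without contralateral replicate 1, 2 or 3 or peritumoral replicate 4. Between contralateral and no-tumor fat it gave 375 to 1986 genes and 0 to 1 member on Chow, and 365 to 1220 genes and 0 to 1 member on HFD. The side interaction gave 0 to 1911 genes and 0 to 1 member, both highest without HFD peritumoral replicate 1, and the bearing interaction 1 to 2 members.

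Signs turned only for values that passed no test as reported, apart from Wnt5a and Wnt11 between sides on HFD, which were 0.037 and 0.018 relative to the adipocyte markers. Wnt2 between diets in contralateral fat was 0.018 without a filter, 0.0045 in 1 fit of 24 and -0.11 to 0.20 over fits without 1 library. Over such fits Wnt5a between sides on Chow ranged from -0.14 to 0.056, and Dkk3 between diets in no-tumor fat from -0.00024 to 0.25.

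Without the 5 libraries high in muscle markers, 2875 genes and 2 members passed between diets in contralateral fat, 30 genes between sides on Chow, 14 genes and 0 members between contralateral and no-tumor fat on Chow, 3 genes in the side interaction and 264 genes and 0 members in the bearing interaction. Signs turned there for Dkk2 (0.10) and Wnt2 (0.14) between diets in contralateral fat and for Sfrp5 in the side interaction (0.18). That fit has 1 Chow contralateral library and fewer samples, and other causes were not tested.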
